A study of Mus musculus with 10 samples.

Results

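LSD1 knockdown was compared with control at 24 h, the earlier time of the series, on 4 of its 10 Affymetrix arrays. The cells were 3T3-L1, an established mouse fibroblast line of preadipocytes, and both groups were of passage 19. The siC group of 2 arrays had received a scrambled siRNA and the siLsd1 group of 2 arrays an siRNA directed at LSD1, each at 60 nM with the same transfection reagent, and RNA was taken 24 h later with no change of medium. The other 6 arrays, 3 with siC and 3 with siLsd1 at 48 h and passage 21, served for the estimate of the spread and for a look at the same genes a day later. Cells without siRNA are not among the 10 arrays, so each change below is that of 1 siRNA against another. The titles call the replicates biological, no source says that the cultures were independent, so the spread behind each p-value may be technical.

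LSD1, encoded by Kdm1a, removes methyl groups from lysine residues of histone H3 and works in a complex with the CoREST scaffold protein and histone deacetylases. The complex is best known for repressing promoters to which DNA-binding factors such as REST, SNAI1 or GFI1 bring it. In preadipocytes LSD1 has been studied for its part in the switch of these cells to fat cells. Other genes that turn up below belong to the response to double-stranded RNA, in which cytoplasmic and endosomal sensors induce interferon beta and interferon alpha, and these act through JAK kinases, STAT and IRF factors on a large set of antiviral genes.

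Each gene was read from its brightest probe set, by the mean of the 10 arrays, and a value below is that probe set's intensity on a linear scale, or a log2 change, siLsd1 minus siC. limma tested 13644 genes. A gene was called where its Benjamini-Hochberg adjusted p was under 0.05, and "rose" and "fell" are used of such genes alone. At this threshold 736 genes were called, 5.39% of those tested. Of these, 355 were higher with siLsd1, 2.6%, and 381 were lower, 2.79%. The median log2 change was 0.64 over the genes called higher, −0.69 over those called lower and −0.02 over all genes. A change of more than 2-fold was seen in 73 of the rises and 86 of the falls.

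How many genes passed depended on the spread taken from the other arrays. The array siLsd1 48 h replicate 3, outside the comparison, differed from both its replicates with an SD of log2 differences of 0.441 and 0.439, against 0.109 between the siLsd1 arrays at 24 h. Without it limma called 3478 genes (25.5%), 1384 higher (10.1%) and 2094 lower (15.3%). The 4 arrays alone gave 3183 (23.3%), 1285 higher (9.42%) and 1898 lower (13.9%). Each of these fits called all of the 736 genes in the same direction. With each array centred on the median of its probe sets 870 genes were called (6.38%), 330 higher (2.42%) and 540 lower (3.96%). Centred on the median of the tested genes, a setting chosen after seeing the data, 790 were called (5.79%), 465 higher (3.41%) and 325 lower (2.38%). Both siLsd1 arrays lay on the same side of both siC arrays in 61.4% of all genes (27.5% higher and 33.9% lower), and in all 736 called genes. With 1 of the 4 arrays left out, between 30 and 131 calls remained, and 24 genes were called in each of the 10 fits that left out 1 array. In bulk samples such as these, fewer cells of a type and less RNA per cell cannot be told apart.

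**Figure D1:**
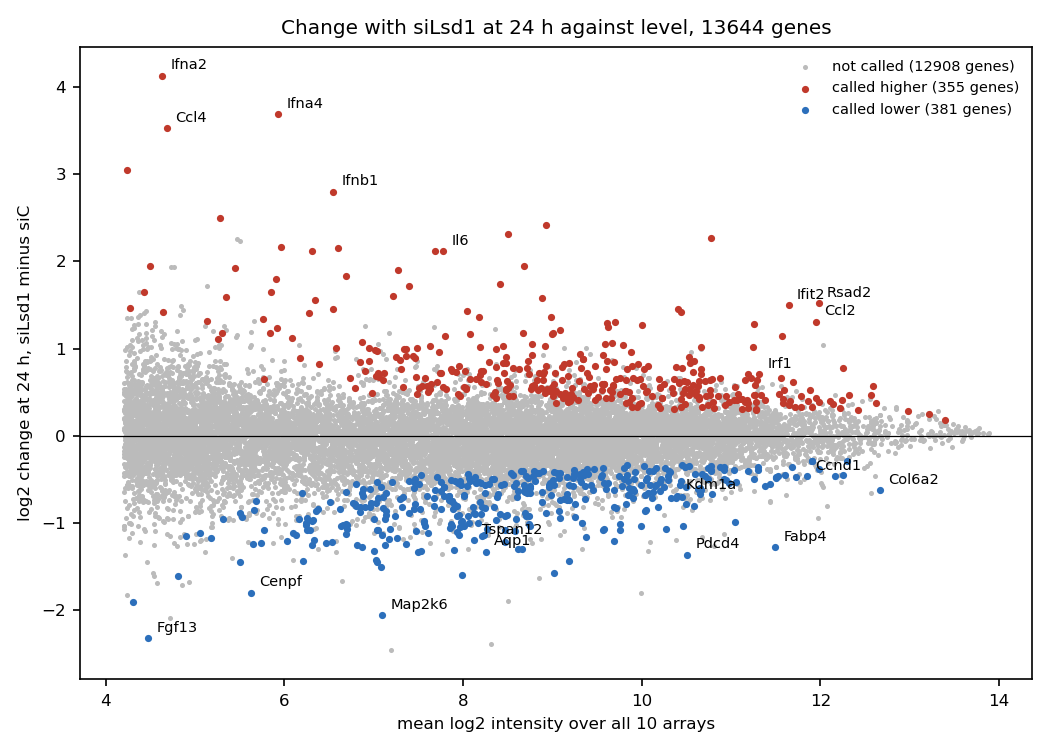
Log2 change at 24 h (siLsd1 minus siC, vertical axis) against the mean log2 intensity over all 10 arrays (horizontal axis) for the 13644 genes tested; red points are the 355 genes called higher, blue points the 381 called lower and grey points the rest. The interferon genes Ifna2, Ifna4 and Ifnb1 and the chemokine gene Ccl4 lie highest, and the falls of Cenpf and Map2k6 are among the lowest called points.

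The 24 genes that kept their call with any 1 array left out were 16 rises and 8 falls. Among the rises were 3 interferon genes (Ifna4, Ifna5 and Ifnb1), 4 chemokine genes (Ccl4, Ccl8, Ccl2 and Ccl7) and the chemokine-binding receptor gene Ccrl2. The antiviral genes Rsad2, Ifit2, Oas1b and Slfn2 and the transcription factor gene Irf1 were there too, with Gadd45g, Ms4a4d and Pla1a. The 8 falls were Map2k6, Aqp1, Tspan12, Evl, Mmp9, Myh10, Ypel2 and Xrcc6. Aqp1, a water channel gene, read 1347 and 1262 with siC against 468 and 572 with siLsd1 (log2 change −1.33, SE 0.13, limma adjusted p 0.00224). Tspan12, a tetraspanin gene, read 408 and 452 against 180 and 195 (log2 change −1.20). Xrcc6, which encodes the Ku70 subunit of DNA end joining, read 397 and 376 against 182 and 204, while its other probe set had a change of 0.57. In these 3 falls both siLsd1 arrays lay far below both siC arrays.

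The targeted gene was lower on both siLsd1 arrays. Kdm1a (Entrez gene 99982) read 1559 and 1621 with siC and 1001 and 971 with siLsd1, a 1.61-fold difference (log2 change −0.69, SE 0.17, limma adjusted p 0.0473). The call sat near the threshold and was lost, for one, with every probe set tested (adjusted p 0.0662). A probe set reads transcript level, and the LSD1 protein was not measured. Of the 18 members of the LSD1 and CoREST complex list that were tested, Kdm1a alone was called, beside a list median of −0.12. Phf21a, a histone reader subunit, read 868 and 922 against 528 and 516 (log2 change −0.78, adjusted p 0.148), and Zmym3, a zinc finger subunit, 505 and 488 against 267 and 306 (log2 change −0.80, adjusted p 0.12). The groups of these 2 genes did not overlap, and neither passed the test. With every probe set tested, a second Phf21a probe set passed, at 770.4 and 784 against 445 and 456 (log2 change −0.79, adjusted p 0.0285). The scaffold gene Rcor1 differed by −0.07, the deacetylase genes Hdac1 and Hdac2 by −0.07 and −0.27, the second LSD demethylase Kdm1b by −0.06 and the complex's recruiting factors Rest and Snai1 by −0.05 and −0.29, with adjusted p between 0.148 and 0.915. The signs of Hdac1, Kdm1b, Rcor1 and Rest turned with the arrays centred on the median of the tested genes.

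Among 44 histone methyltransferases and demethylases tested, 2 rose and 2 fell, beside a median of −0.11. That is 4.55% each way, near the 2.6% and 2.79% of all genes, and the single genes are given as values. Setdb2, an H3K9 methyltransferase gene, rose from 763 and 804 to 1289 and 1157 (log2 change 0.64, limma adjusted p 0.00932), with its groups well apart. Its relative Setdb1 read 257 and 261 against 276 and 261 (log2 change 0.05), and one siLsd1 array lay at the level of the higher siC array. Nsd1, an H3K36 methyltransferase gene, fell from 274 and 284 to 150 and 161 (log2 change −0.84), although 2 of its other probe sets had the opposite sign. Smyd2 fell by 0.48 on the log2 scale and Setd7 rose by 0.33, against −0.0077 for the mean of its probe sets. In the NuRD complex, a nucleosome remodelling and deacetylase complex, the remodeller gene Chd4 fell by 0.55 and the methyl-CpG binding gene Mbd2 rose by 0.32, of 14 subunits tested. Each of these calls was 7.14% of that list.

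The steepest rises at 24 h were in type I interferon genes, the ligands of the antiviral response. Of 7 ligand genes tested, 4 rose, 57.1% of them beside 2.6% of all genes. Ifnb1, the gene of interferon beta, read 106 and 93.9 with siC and 774 and 624 with siLsd1, a 6.97-fold difference (log2 change 2.80, SE 0.26, limma adjusted p 0.00153). Ifna4 read 50.3 and 39.5 against 642 and 515 (12.9-fold, adjusted p 0.000171). Both genes went from a dim to a clearly readable signal on both arrays.

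For 2 further interferon alpha genes the siC arrays lay under 18.4, the level below which genes were set aside as dim, so a floored fold is given, with intensities under that level raised to it. Ifna2 read 12.3 and 15.3 against 261 and 222, a floored 13.1-fold, and Ifna5 read 14.4 and 15.04 against 130 and 114, a floored 6.60-fold. The remaining ligand genes were not called: Ifna1 read 29.0 and 30.4 against 34.5 and 30.1, and the log2 changes of Ifnab and Ifnz were −0.05 and −0.03. Interferon alpha genes are near-identical, so the assignment of signal to single members is uncertain. Of the subunit genes of the interferon receptor, Ifnar1 fell from 381 and 419 to 290 and 302 (log2 change −0.43, adjusted p 0.0469) and Ifnar2 differed by 0.12 (adjusted p 0.546). The Ifnar1 call was near the threshold and was lost, among others, with quantile normalization (adjusted p 0.0595), with probe sets averaged (0.457) and with no intensity trend (0.0627).

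The sensors of double-stranded RNA and their adaptors had 9 rises among 24 genes tested (37.5%, beside 2.6% of all genes, median 0.20). Oasl1, a synthetase-like gene, rose most, from 80.2 and 81.1 to 306 and 307 (3.80-fold, limma adjusted p 0.0278). Sting1, the adaptor of the cytoplasmic DNA pathway, rose from 309 and 302 to 520 and 525, and Zbp1, a sensor of Z-form nucleic acid, from 1729.5 and 1501 to 2872 and 2667. In each of the 3 both siLsd1 arrays were well above both siC arrays. Smaller rises were seen in Ifih1, which encodes the long-duplex sensor MDA5, from 1911 and 1899 to 2694 and 2569, and in the endosomal receptor gene Tlr3, from 1811 and 1887 to 2799.9 and 2561 (log2 changes 0.47 and 0.53). Oas1a, Oas1b, Myd88 and Tbk1 rose by 0.41, 0.79, 0.44 and 0.35. Ddx58, which encodes the sensor RIG-I, read 2598 and 2860 against 2863 and 2668, and its groups overlapped; the kinase gene Eif2ak2 differed by 0.15 (adjusted p 0.737). The partner of that kinase, Prkra, fell from 1171 and 1306 to 714 and 659 (log2 change −0.85, limma adjusted p 0.0259). Prkra was the single call among 20 genes of RNA interference and microRNA processing, 5.0% of them beside 2.79% of all genes. Its call was lost with probe sets averaged and with no intensity trend.

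Among IRF and STAT factors, interferon receptors and their regulators, 5 genes rose and 1 fell of 23 tested. That is 21.7% and 4.35%, beside 2.6% and 2.79% of all genes. Irf1, an activator of interferon and antigen presentation genes, read 2292 and 2343 with siC against 3968 and 3609 with siLsd1 (log2 change 0.71, SE 0.07, limma adjusted p 0.00224). The feedback inhibitor gene Socs1 rose from 214 and 128 to 323 and 338, the kinase gene Jak2 from 991 and 1003 to 1617 and 1484, and Stat3 from 683 and 649 to 873 and 894. Irf2 rose by 0.33. The groups of these 5 genes did not overlap. The factors of the interferon-stimulated gene complex did not pass: Stat2 differed by 0.06 with overlapping groups, Irf9 by −0.17 and Irf7 by 0.29 (adjusted p 0.888, 0.658 and 0.13), and Irf3 read 721 and 714 against 720 and 736.

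Antiviral effector genes had 15 rises among 40 tested (37.5%, beside 2.6% of all genes, median 0.25). Without siLsd1 48 h replicate 3 they had 21 rises and 1 fall, where 10.1% and 15.3% of all genes rose and fell. Rsad2, which encodes viperin, rose from 4082 on both siC arrays to 12212 and 11254 (2.87-fold, limma adjusted p 0.00224). Ifit2, of a family that binds viral RNA, rose from 2850.0 and 3183 to 9167 and 7924, and Ifit1bl1 of the same family from 377 and 386 to 2233 and 1601. These genes were already far above the dim level with siC: 31 of the 40 effector genes read over 1000 on both siC arrays. The largest fold changes lay in genes with less signal, such as the nucleic acid sensor gene Ifi209, which rose from 93.7 and 98.1 to 470 and 372 (4.36-fold). Mx1 and Mx2, dynamin-like inhibitors of virus, rose 2.03- and 1.78-fold, and the schlafen genes Slfn2 and Slfn8 2.05- and 1.91-fold. At the bright end the rises were small, with Ifit1 going from 6415 and 6299 to 9140.0 and 8485 and Ifit3 from 10251 and 10187 to 12546 and 11808 (log2 changes 0.47 and 0.25). Usp18, an enzyme that removes ISG15 from proteins, rose 1.49-fold. The 25 effector genes without a call had a median of 0.13, between −0.48 for Ifi27 and 0.62 for Cmpk2. Interferon-inducible GTPases, which attack vacuoles of pathogens, had 3 rises among 11 tested (27.3%, beside 2.6% of all genes). Gbp8, Igtp and Irgm2 rose 2.49-, 1.38- and 1.32-fold. The other 8 had positive changes up to 0.93 for Gbp2b (limma adjusted p 0.0637). The GTPase rises numbered 1 with no intensity trend, and 9 without siLsd1 48 h replicate 3, where 10.1% of all genes rose.

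MHC class I presentation, an interferon-inducible pathway, had 10 rises among 18 genes tested (55.6%, median 0.44). They covered the successive steps of the pathway. Subunits of the immunoproteasome, which cuts peptides, rose: Psmb9 from 1697 and 1621 to 3309 and 2884 (log2 change 0.90, limma adjusted p 0.00467), Psmb8 by 0.63 and Psmb10 by 0.48, with the activator subunit Psme1 by 0.39. The peptide transporter genes Tap1 and Tap2 rose by 0.49 and 0.57, the peptide editor gene Tapbpl by 0.64 and the trimming peptidase gene Erap1 by 0.63. Nlrc5, the transactivator of the pathway, rose from 580.0 and 660.0 to 931 and 831. Of the class I heavy chains H2-M3 rose, from 1536 and 1447 to 2314 and 2156, while the classical H2-K1 and H2-D1, with siC values of 8524 to 9351, differed by 0.23 and 0.25 (adjusted p 0.143 and 0.0706). Calr, which encodes the chaperone calreticulin, had a change of −0.76 (adjusted p 0.118).

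The promoters of these genes were searched for GAAA, any 2 bases and GAAA, the core of the interferon-stimulated response element, on both strands from 250 bases before to 50 after the start, in RefSeq promoters of GRCm38.p6. It stood in 3.99% of all 27025 promoters, in 3.60% of those of tested genes, in 39.0% of the 100 promoters found for the interferon, sensor, factor, effector, GTPase and MHC lists, and in 17 of the 36 found among their called rises (47.2%). Among all called genes it stood in 10.8% of promoters of rises and 2.32% of falls. The 220 bases before the start are shown for an interferon gene, an antiviral gene with 1 match and a chemokine gene, each called higher, with the matched letters in capitals; they lie at chr4:88841596-88841815 (plus strand), chr12:26456453-26456672 (minus strand) and chr5:92348890-92349109 (minus strand). Ifna4 holds 2 matches, beginning 208 and 118 bases before the start, Rsad2 holds 1 at 120 and Cxcl10 holds 1 at 213. A match describes the letters of the window and was not tested for binding.
Ifna4: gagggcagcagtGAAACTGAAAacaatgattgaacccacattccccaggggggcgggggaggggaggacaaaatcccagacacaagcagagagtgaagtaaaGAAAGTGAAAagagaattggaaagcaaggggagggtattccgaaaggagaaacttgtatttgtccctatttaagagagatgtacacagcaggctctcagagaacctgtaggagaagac
Rsad2: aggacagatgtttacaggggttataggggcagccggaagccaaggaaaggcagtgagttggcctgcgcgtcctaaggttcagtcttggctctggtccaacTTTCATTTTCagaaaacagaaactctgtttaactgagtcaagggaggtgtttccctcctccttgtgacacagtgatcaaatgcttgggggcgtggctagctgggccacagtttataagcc
Cxcl10: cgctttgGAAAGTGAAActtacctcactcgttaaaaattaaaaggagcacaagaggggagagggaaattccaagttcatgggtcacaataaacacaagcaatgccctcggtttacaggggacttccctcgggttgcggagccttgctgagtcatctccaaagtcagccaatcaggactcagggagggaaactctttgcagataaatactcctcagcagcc

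Chemokines and their receptors had 10 rises and 1 fall among 26 genes tested (median 0.73). That is 38.5% and 3.85%, beside 2.6% and 2.79% of all genes. Ccl4, an attractant of monocytes and T cells, read 13.4 and 10.3 with siC against 145 and 125 with siLsd1, a floored 7.33-fold (limma adjusted p 0.000459). Ccl5 read 1085 and 1063 against 6099.5 and 4399, and Ccl8 276 and 292 against 1211 and 985. The monocyte attractants Ccl2 and Ccl7 rose from 3956 and 3195 to 8919 and 8689 and from 2735 and 2406 to 5774 and 5524. In all of these both siLsd1 arrays were well above both siC arrays. The interferon-induced CXCR3 ligands rose as well: Cxcl11 5.34-fold, Cxcl9 3.58-fold, and Cxcl10 from 3465 and 3764 to 7613 and 7022. Cxcl1, a neutrophil attractant, rose from 888 and 863 to 2424 and 2365 (2.74-fold). Ccl20, the ligand of CCR6, had a change of 2.26 that did not pass (adjusted p 0.08), and Cxcl12, a constitutive stromal chemokine, read 9269 and 8889 against 8537 and 9029. The fall was in Ackr4, a scavenging receptor, from 75.2 and 81.0 to 40.2 and 46.1.

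Of 34 cytokine, cytokine receptor and acute phase genes tested, 9 rose (26.5%, beside 2.6% of all genes). Il6 read 345 and 352 with siC and 1553 and 1466 with siLsd1 (4.33-fold, SE 0.47 on the log2 scale, limma adjusted p 0.033). Tslp, an epithelial and stromal cytokine gene, rose from 43.2 and 41.2 to 131 and 133, Csf2, which encodes GM-CSF, from 15.6 and 16.02 to 49.0 and 36.7 (a floored 2.30-fold), and Csf1, which encodes M-CSF, from 1726 and 1602 to 2712 and 2484. Ptgs2, the inducible enzyme of prostaglandin synthesis, rose from 449 and 491 to 1232 and 1174. The 2 arrays of each group lay close to each other in these genes except Csf2. Il6ra, Il15ra, Clcf1 and Il18bp completed the rises, the last a secreted inhibitor of interleukin 18; another probe set of Il6ra differed by −0.09.

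NF-kB subunits, regulators and feedback inhibitors had 8 rises among 23 tested (34.8%, beside 2.6% of all genes, median 0.25). The feedback genes Tnfaip3, Nfkbia and Nfkbie, which hold the pathway back, rose from 168 and 187 to 414 and 372, from 3227 and 3070.0 to 4421 and 4222 and from 303 and 370.1 to 591 and 563. The subunit genes Rela and Relb rose by 0.50 and 0.80, the cofactor gene Bcl3 by 0.85, the kinase gene Map3k8 by 1.00 and Birc3 by 0.40. GGG, any 5 bases and CC, searched on both strands as the NF-kB letters, stood in 16 of 18 promoters found for the called rises of the chemokine, cytokine and NF-kB lists (88.9%), beside 76.7% of promoters of all tested members of these lists, 73.3% of those of all called rises and 70.3% of those of all tested genes.

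**Figure D2:**
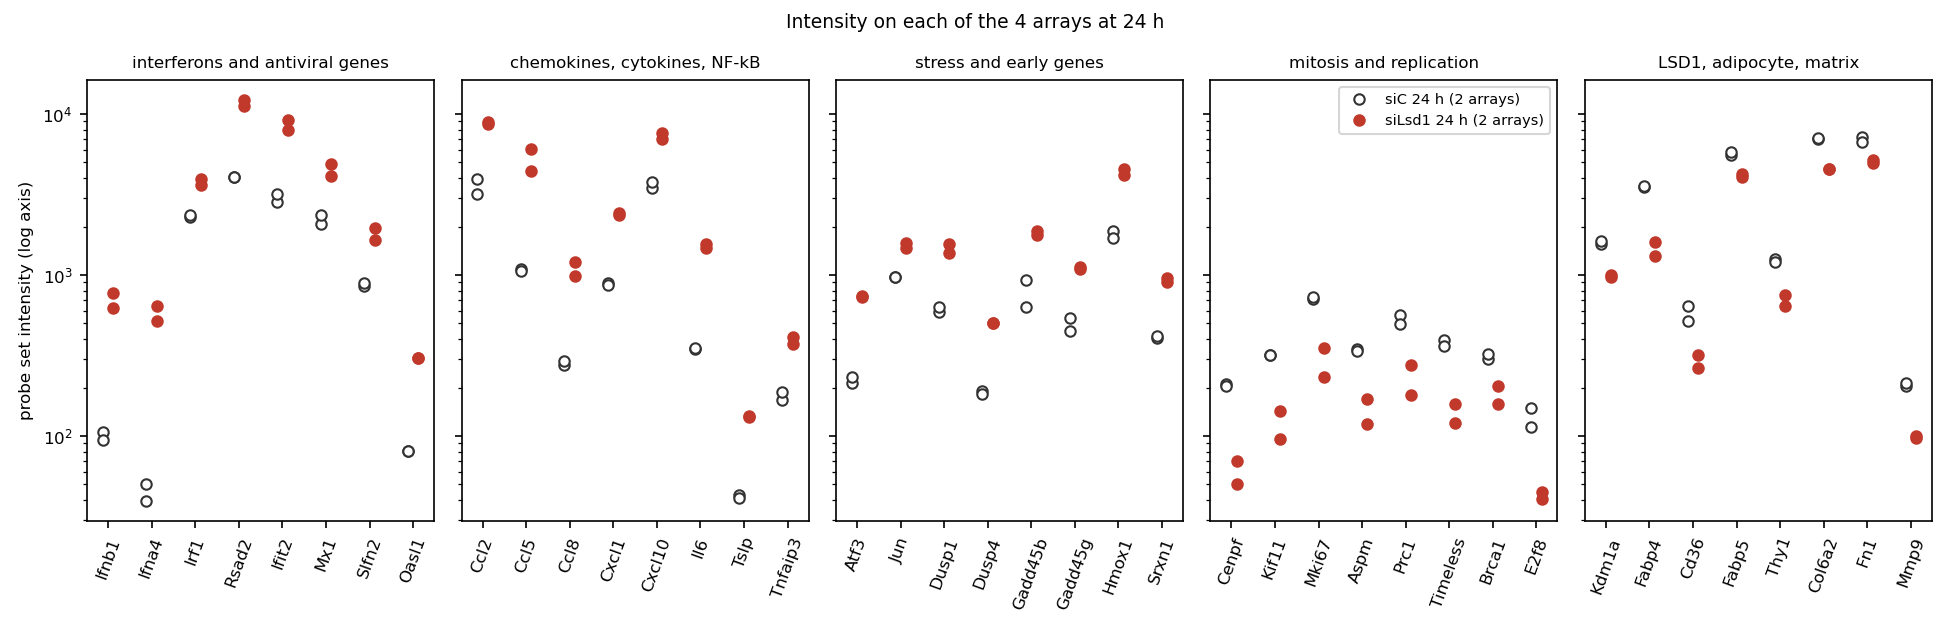
Probe set intensity (log axis) on each of the 4 arrays at 24 h for 40 called genes in 5 groups of 8; open circles are the 2 siC arrays and red circles the 2 siLsd1 arrays. In the first 3 panels the siLsd1 arrays lie above the siC arrays, and in the last 2 they lie below, with Mki67 at 712 and 729 against 234 and 353.

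Immediate early and stress transcription factors had 9 rises among 30 tested (30.0%, beside 2.6% of all genes, median 0.37). Atf3, a stress-induced repressor gene, rose from 214 and 232 to 739 and 726 (3.29-fold, limma adjusted p 0.0112). Jun rose from 977 and 972 to 1577 and 1473, Jund by 0.37 and Srf by 0.44, and the small Maf genes Mafk and Maff by 1.02 and 1.12. Ier3, Ier5 and Klf4 rose by 0.96, 0.70 and 0.52. Fos, Egr1 and Myc, induced early by serum, were not called: Fos read 269.7 and 260.1 against 314 and 327, Egr1 3565 and 3489.5 against 2865 and 2922, and Myc 882 and 952 against 1382 and 1368 (adjusted p 0.857, 0.792 and 0.294). Their groups did not overlap at 24 h, and none passed the test.

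In the MAP kinase cascade, Map2k6, a kinase that activates p38, fell from 285 and 266 to 67.6 and 64.1 (log2 change −2.06, limma adjusted p 0.00307), a 4.18-fold difference. Among phosphatase genes that switch MAP kinases off, 3 were called, all higher: Dusp1 rose from 586 and 630.0 to 1550 and 1376, and Dusp4 from 190.4 and 183 to 501 and 506. Dusp8 rose by 1.11, with a change of −0.10 for the mean of its probe sets. Dusp16 was not called (log2 change 0.36, adjusted p 0.283). Etv5, a target of ERK, fell from 200 and 245 to 125 and 126. With 32 genes tested, the list's median was 0.02, and its rises and falls were 9.38% and 6.25%, beside 2.6% and 2.79% of all genes. Among growth factor genes Gdnf rose from 170.4 and 164 to 381 and 366, the matricellular gene Ccn1 1.57-fold, and Inhba by 0.66, against −0.34 for the mean over its probe sets. Fgf13 fell, from 30.6 and 33.4 to 6.65 and 6.14, where the floored fold is 1.74, and another probe set had the opposite sign.

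NRF2 and oxidative stress genes had 3 rises (8.82%, beside 2.6% of all genes) and 1 fall (2.94%, beside 2.79%) of 34 tested. The rises numbered 0 with probe sets averaged and 1 with no intensity trend, and without siLsd1 48 h replicate 3 there were 16 rises and 4 falls, where 10.1% and 15.3% of all genes rose and fell. Hmox1, which encodes heme oxygenase, rose from 1877 and 1707 to 4555 and 4187 (2.44-fold, limma adjusted p 0.0423), Srxn1, which encodes sulfiredoxin, from 405 and 417 to 906 and 954, and the autophagy receptor gene Sqstm1 from 4283 and 3619 to 7126 and 6402. Nqo1, a standard NRF2 target, read 1019 and 1009.9 against 1042 and 1244 (adjusted p 0.605). Of 39 ATF4 and unfolded protein response genes, 0 rose and 3 fell (7.69%) by limma, with 6 higher and 5 lower at an unadjusted p under 0.05. Without siLsd1 48 h replicate 3, 13 rose and 7 fell, beside the same 10.1% and 15.3% of all genes. A positive change was seen in 26 of the 39. With all arrays the falls were the endoplasmic reticulum sensor gene Atf6 by 0.81, the folding enzyme gene Pdia4 by 0.59 and Herpud1 by 0.41. Atf4 and Ddit3 differed by 0.32 and 0.24 (adjusted p 0.328 and 0.27). Erp29, a further chaperone gene of that compartment and outside the list, fell from 1210.1 and 1098 to 470 and 531.

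Of 21 cell death genes tested, 5 rose (23.8%, beside 2.6% of all genes). Mlkl, the executor of necroptosis, read 1471 and 1404 with siC and 2514 and 2389 with siLsd1 (log2 change 0.77, limma adjusted p 0.00253). The inflammatory caspase gene Casp4 rose from 1005 and 1048 to 1667 and 1572 and its pore-forming substrate Gsdmd from 368 and 338 to 488 and 481. Fas rose 1.49-fold and Daxx 1.36-fold. In the p53 and arrest list, 4 of 28 rose and 2 fell (14.3% and 7.14%, beside 2.6% and 2.79% of all genes). Gadd45b and Gadd45g, stress genes of growth arrest, rose from 932 and 636 to 1881 and 1772 and from 544 and 448 to 1084 and 1126. The CDK inhibitor genes split, with Cdkn1a and Cdkn2b higher by 0.33 and 0.39 and Cdkn2c and Cdkn2d lower by 0.94 and 1.25. The p53 regulator Mdm2 differed by 0.15 (adjusted p 0.181).

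Of 75 G2 and mitosis genes tested, 14 fell (18.7%, beside 2.79% of all genes), 61 were not called, and the list's median was −0.71. Both siLsd1 arrays were under both siC arrays in 68 of the 75, beside 33.9% of all genes. Without siLsd1 48 h replicate 3, 57 fell and 2 rose, where 15.3% and 10.1% of all genes did. The falls numbered 6 with probe sets averaged, 9 with quantile normalization and 9 with no intensity trend. Cenpf, a kinetochore gene, read 210.4 and 203 with siC against 50.1 and 70.2 with siLsd1 (3.49-fold, SE 0.28 on the log2 scale, limma adjusted p 0.00806). Mki67, the proliferation marker, read 712 and 729 against 234 and 353, and Kif11, the motor that separates spindle poles, 317 and 318 against 95.9 and 142.

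The 14 falls covered the stages of mitosis. Spindle and centrosome genes were Aspm (345 and 338 against 119 and 170.2), Kif11, Nusap1, Nek2 and Ckap2. Kinetochore and cohesion genes were Cenpf, Cenpe, Kif2c and Sgo2a, the last of which guards centromeric cohesion and fell from 492 and 491 to 194 and 245. Ncaph is a condensin subunit gene, and Prc1, Racgap1 and Kif20b act in cytokinesis, where Prc1 fell from 562 and 496 to 179 and 274. Their falls ran from 1.62-fold for Ckap2 and Ncaph to 3.49-fold for Cenpf. Top2a, Plk1 and Cdk1 did not pass: Top2a read 2197 and 2140.0 against 946 and 1266 (adjusted p 0.0641), Plk1 363 and 318 against 158 and 195 (adjusted p 0.0576), and Cdk1 2236 and 1899 against 1402 and 1750.4 (adjusted p 0.272). Members with a positive change were few, 4 of 75, and 3 of them went against the list by over 0.6: Melk, a kinase gene, read 1039.6 and 1366 against 2242 and 1902 (log2 change 0.79, adjusted p 0.0503), Kif15 25.9 and 11.4 against 49.0 and 65.4, and Mybl2 58.2 and 77.1 against 124 and 88.1.

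TTTGAA, the core of the cell cycle genes homology region (CHR), was searched on both strands in the same windows. It stood in 42 of the 62 promoters found for the mitosis list (67.7%) and in 9 of the 14 of its falls, beside 20.2% of all promoters and 14.5% of those of tested genes. CCAAT stood in 45 of the 62 (72.6%) and 10 of the 14, beside 41.1% of all promoters. The 120 bases before the start are given for 2 of the falls, at chr19:37376262-37376381 (plus strand) and chr7:135716380-135716499 (minus strand), with the CHR letters in capitals. Kif11 holds 1 match beginning 19 bases before the start, and Mki67 holds 2, at 116 and 98.
Kif11: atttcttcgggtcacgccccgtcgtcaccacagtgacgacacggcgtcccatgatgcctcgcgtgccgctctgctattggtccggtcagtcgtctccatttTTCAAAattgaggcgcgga
Mki67: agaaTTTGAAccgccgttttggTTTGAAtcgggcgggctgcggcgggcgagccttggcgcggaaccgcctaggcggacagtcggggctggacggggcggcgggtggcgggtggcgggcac

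S phase and replication genes had 6 falls among 59 tested (10.2%, beside 2.79% of all genes, median −0.29). The falls numbered 1 with probe sets averaged and 3 with arrays centred on the median of the tested genes. They numbered 4 with quantile normalization and 5 with no intensity trend. Without siLsd1 48 h replicate 3, 22 fell and 0 rose, where 15.3% and 10.1% of all genes did. Timeless, a component of the replication fork, fell from 395 and 361 to 121 and 157 (2.74-fold, limma adjusted p 0.00473). The ligase gene Lig1 fell from 915 and 947 to 559 and 677, the polymerase genes Pold1 and Pola1 by 0.53 and 0.68, and the repair genes Brca1 and Brca2 by 0.79 and 0.66. Pola1 changed by 0.30 when its probe sets were averaged. The helicase gene Mcm2 and the clamp gene Pcna had overlapping groups, at 1370.2 and 1259 against 1251 and 1457 and at 4913 and 4036 against 4328 and 4840.3. Of 21 E2F, RB family and G1 cyclin genes, 3 fell (14.3%, beside 2.79% of all genes). Without siLsd1 48 h replicate 3, 6 rose and 5 fell, where 10.1% and 15.3% of all genes did. With all arrays the falls were E2f8, a repressor among the E2F factors, from 114 and 149 to 40.8 and 44.8, the E2F partner Tfdp1 by 0.51, and Ccnd1, which encodes cyclin D1, from 5283 and 5775 to 3957 and 4046. E2f1 read 197 and 162 against 144 and 176.

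The 2 siLsd1 arrays differed from each other in several lists. Replicate 1 read higher than replicate 2 in 44.5% of all tested genes, but in 37 of the 40 antiviral effector genes, in 7 of 7 interferon ligands, in 11 of 11 GTPases and in 17 of 18 MHC class I genes. In the mitosis list replicate 1 was the higher array in 4 of 75 genes and in the S phase list in 3 of 59. The order was as one-sided in the oxidative phosphorylation list, without a call, where replicate 1 was higher in 4 of 51 genes. Other lists with calls varied. Replicate 1 was the higher in 18 of 34 cytokine genes and 15 of 30 immediate early genes, near even, and in 16 of 26 chemokine genes. It was the higher in 19 of 24 sensor genes, 16 of 23 IRF and STAT list genes and 27 of 36 adipogenic factor genes, but in 11 of 34 NRF2 genes. The median distance of the mitosis list from the mean of the siC arrays was −0.90 on replicate 1 and −0.55 on replicate 2. Kdm1a itself read 1001 on replicate 1 and 971 on replicate 2. The siC arrays showed the mitosis list at 0.01 and −0.01 around their mean. The cause of this difference between the siLsd1 arrays was not tested.

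**Figure D3:**
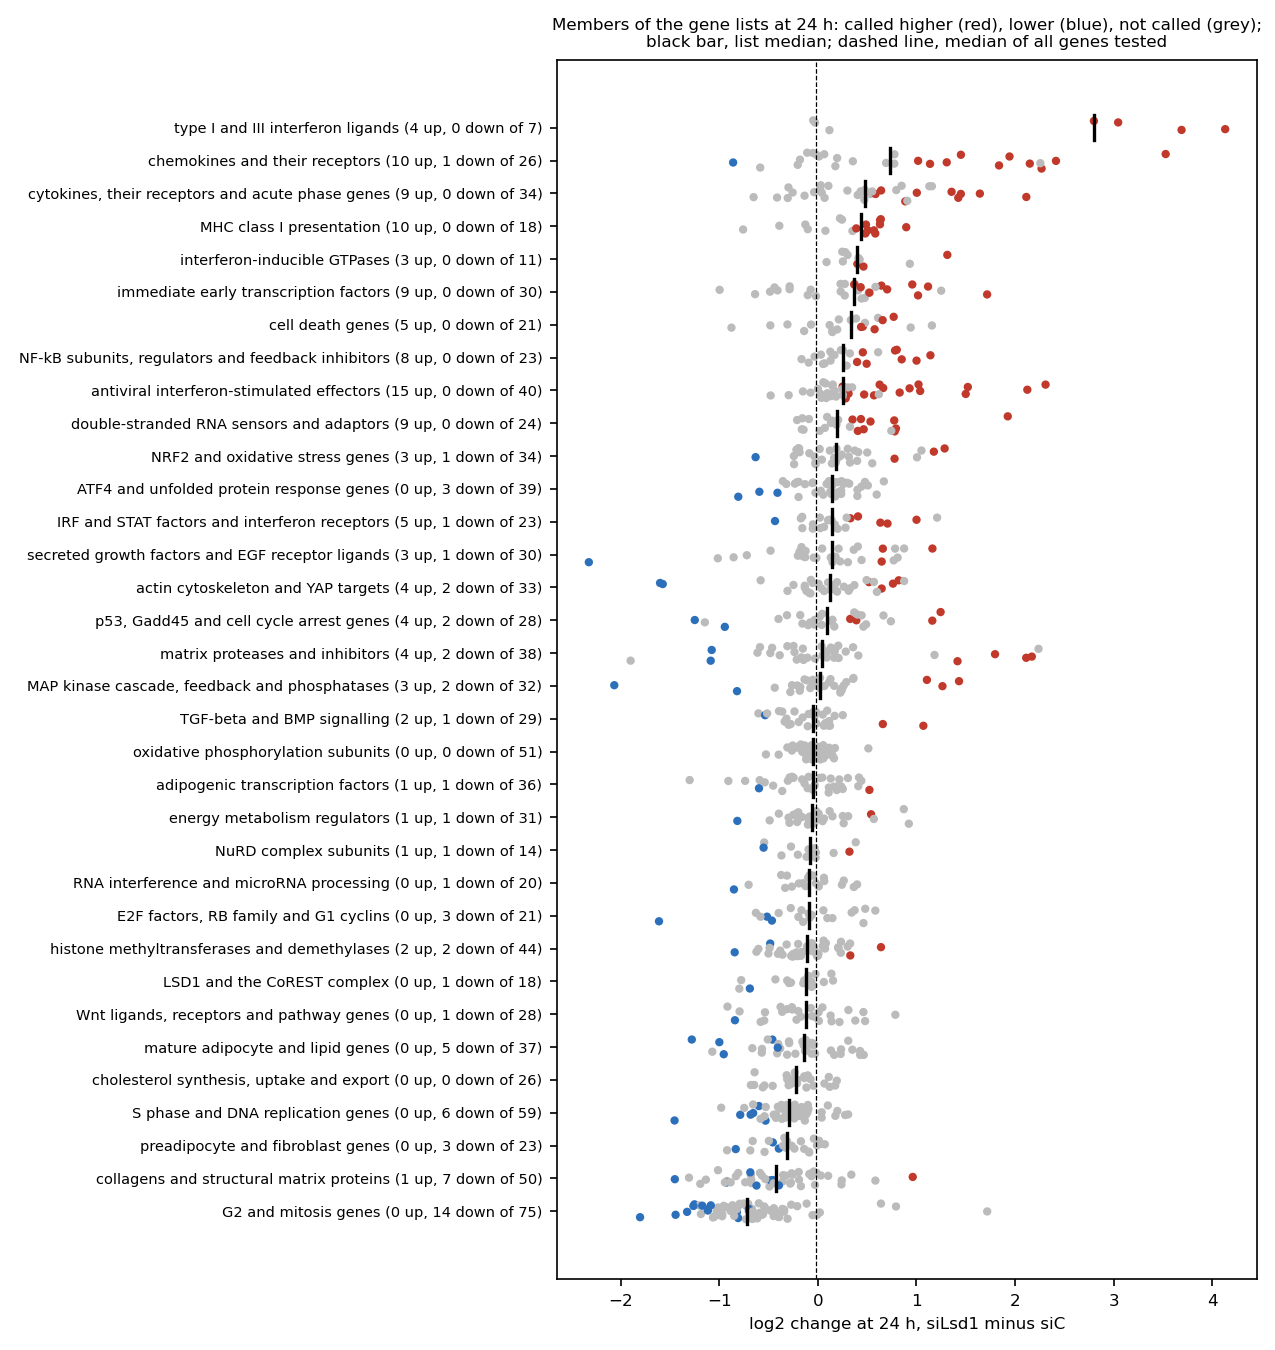
Log2 change at 24 h (siLsd1 minus siC, horizontal axis) of every tested member of 34 gene lists, ordered by median; red points were called higher, blue points lower and grey points not called, the black bar is the list's median and the dashed line the median of all genes, −0.02. The interferon ligand list lies highest with a median of 2.80 and the G2 and mitosis list lowest at −0.71.

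Among mature adipocyte and lipid genes 5 fell of 37 tested (13.5%, beside 2.79% of all genes, median −0.14). Fabp4, the fatty acid binding protein of fat cells, read 3500.4 and 3580.1 with siC and 1320.3 and 1615 with siLsd1 (2.42-fold, limma adjusted p 0.0358). With every probe set tested, 1 of its other probe sets fell (log2 change −1.22, limma adjusted p 0.0448). The other 2, at 30.7 or less on the 4 arrays, had changes of −1.17 and 0.19 that did not pass. Fabp5, its relative, fell from 5561 and 5819 to 4039 and 4231, and Cd36, a fatty acid transporter gene, from 520 and 641 to 264 and 316. Cd24a, a surface glycoprotein gene of fat precursors, fell 1.94-fold and Fads2, a desaturase gene, 1.32-fold. Other genes of mature fat cells read low: Adipoq, which encodes adiponectin, read 35.4 and 34.8 against 21.4 and 38.4, and Lep read at most 8.37.

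Adipogenic transcription factors had 1 rise and 1 fall of 36 tested, 2.78% each way and close to the 2.6% and 2.79% of all genes. The fall was Zfp423, a determinant of preadipocyte commitment, from 379 and 438 to 297 and 244 (log2 change −0.60, limma adjusted p 0.0319), and the rise was Klf4. Pparg, the central regulator of fat cell formation, read 818 and 803 against 787 and 778 (log2 change −0.05, adjusted p 0.764). Cebpb read 3231 and 3607 against 4633 and 4492, Cebpd differed by 0.13 and Cebpa by −0.45 (adjusted p 0.102, 0.624 and 0.282). Of 31 energy metabolism regulators tested, 1 rose and 1 fell, 3.23% each way and near the shares of all genes. Tfam, a mitochondrial transcription factor gene, rose from 641 and 610.1 to 915 and 904. Its call was lost with probe sets averaged, quantile normalization, arrays centred on the median of the tested genes or no intensity trend. Acadm, which encodes a medium-chain acyl-CoA dehydrogenase, fell from 1183 and 1165 to 629 and 708, a call lost with no intensity trend. Ppargc1a differed by −0.21 and Pdk4 by −0.01 (adjusted p 0.665 and 0.978).

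Preadipocyte and fibroblast genes fell in 3 of 23 cases (13.04%, beside 2.79% of all genes), with a median of −0.31. Thy1, a surface marker of these cells, went from 1253 and 1209.9 to 639 and 748 (log2 change −0.83, limma adjusted p 0.0112), with Fn1 and Cd44 lower by 0.46 and 0.39. With probe sets averaged the list had 2 falls, with no intensity trend 1 and with quantile normalization 4. Leaving out siLsd1 48 h replicate 3 gave 10 falls and 0 rises, where 15.3% and 10.1% of all genes fell and rose. Dlk1, a marker lost on differentiation, read 5921 and 5216 against 4589.9 and 4289 (adjusted p 0.0653). Bright fibroblast markers were not called: Vim read 14003 and 13960.2 against 14168 and 14051, and Col1a2 14199 and 13207 against 13894 and 14082. The summed intensity of the 9 preadipocyte markers on the array was 60220.0 and 58520.0 with siC and 55120.0 and 54360.0 with siLsd1. Cd34, at 11.8 to 16.2, lay under the dim level of 18.4, and the other 8 read 639 or more on all 4 arrays. Of these, Pdgfra and Pdgfrb had changes of −0.54 and −0.68 that did not pass (limma adjusted p 0.504 and 0.0632).

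Collagens and structural matrix proteins had 7 falls and 1 rise among 50 genes tested, beside a median of −0.42. The falls were 14.0% of the list, beside 2.79% of all genes, and numbered 3 with probe sets averaged and 4 with no intensity trend. Without siLsd1 48 h replicate 3 there were 31 falls and 3 rises, where 15.3% of all genes fell. Col6a2 fell from 6972 and 7054 to 4545 and 4572 (log2 change −0.62, limma adjusted p 0.00986), Fn1, which encodes fibronectin, from 7247 and 6708 to 4967 and 5201, and the laminin gene Lamb1 from 3276 and 3333 to 2278 and 2481. The proteoglycan genes Hspg2, Vcan and Prelp fell by 0.68, 0.39 and 0.93, and Itgbl1 by 1.45. Other probe sets of Vcan had changes of both signs, from −0.64 to 1.66, and another of Prelp had 0.17. Has2, the synthase of hyaluronan, was the rise, from 186 and 206 to 379 and 385.

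Matrix proteases and inhibitors split, with 4 rises and 2 falls of 38 tested (10.5% and 5.26%, beside 2.6% and 2.79% of all genes). Mmp9 and Mmp19 fell, Mmp9 from 203 and 212 to 99.8 and 97.4 and Mmp19 from 188 and 198 to 93.9 and 88.3. The serpin genes Serpinb2, Serpinb9 and Serpinb9b rose 3.48-, 2.67- and 4.33-fold, Serpinb9 from 1207 and 1176 to 3304 and 3063. Ctss, a lysosomal protease gene, rose from 44.9 and 48.9 to 237 and 188. Of 33 actin and YAP genes, 4 rose (Actg2, Cnn2, Ccn1 and Ajuba) and 2 fell (Hip1 and Gas7). These were 12.1% and 6.06% of that list. Cnn2, a calponin gene, rose from 2398 and 2323 to 3348 and 3416, and other probe sets of Hip1 had changes of both signs. In the TGF-beta and BMP list Bambi, a decoy receptor gene, rose 2.10-fold, Inhba rose and Bmpr2 fell 1.45-fold, of 29 tested. That is 6.9% higher and 3.45% lower, beside 2.6% and 2.79% of all genes. Among 28 Wnt genes Wnt4 alone fell, 1.79-fold, which is 3.57% of the list beside 2.79% of all genes.

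Oxidative phosphorylation subunits and cholesterol genes had no call by limma at 24 h. Of 51 oxidative phosphorylation genes, 10 were lower and 0 higher at an unadjusted p under 0.05, beside 1786 lower and 1283 higher of all 13644 genes, and the median was −0.05. The 2 with the smallest p were Cox7a2, at 5063 and 5042 against 4141 and 4337, and Sdha (log2 changes −0.25 and −0.31, adjusted p 0.0757 and 0.0782). Without siLsd1 48 h replicate 3, 10 fell and 3 rose, where 15.3% and 10.1% of all genes did. Of 26 cholesterol genes, 4 were lower and 1 higher at an unadjusted p under 0.05, with a median of −0.22. Without that array 8 fell and 1 rose, beside the same shares of all genes. The exporter gene Abca1 read 301 and 339 against 216 and 219 (adjusted p 0.0598) and Hsd17b7, a synthesis gene, 247 and 236 against 152 and 182 (adjusted p 0.0803).

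Macrophage, endothelial, muscle, epithelial and lymphoid markers had low summed intensities, and none of these short marker sets had a call. The summed intensity of 8 macrophage markers was 937 and 943 with siC and 997 and 919 with siLsd1, with the defining gene Ptprc at 3.28 to 17.0. In a longer macrophage list of 15 tested genes, Mpeg1 alone rose, from 400 and 515 to 1701 and 1348; it encodes a pore-forming protein of phagocytes. Endothelial, epithelial and lymphoid sums were 37.98 to 150.5 on all 4 arrays, and the muscle sums, 202 and 256 against 355 and 319, followed Acta1 (adjusted p 0.0837). The part of other cells in the rise of inflammatory genes was not tested.

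Several of the largest falls lay outside the lists. Pdcd4, an inhibitor of translation, fell from 2055 and 2215 to 829.6 and 826 (2.58-fold, limma adjusted p 0.00932). Hdac11, a deacetylase gene, fell from 156 and 178 to 71.1 and 61.2, and the zinc finger genes Zfp41 and Zfp354c 2.51- and 2.84-fold. Bbip1, of the ciliary BBSome, fell from 838 and 907 to 319 and 323, Fam122b from 614 and 587 to 212 and 277, and Sorcs2, a sorting receptor gene, 2.48-fold. The siLsd1 arrays of Pdcd4 and Bbip1 nearly coincided. Among rises outside the lists were AA467197, from 33.5 and 30.4 to 194 and 168 (5.65-fold), F8, which encodes a coagulation factor, from 89.1 and 106 to 418 and 316, and the kinase gene Pim1, from 114 and 78.3 to 309 and 267. Apoe was called higher as well, but its siC values of 4.45 and 8.75 lay under the dim level, and the floored fold is 1.31.

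The same genes were read a day later on other arrays, in cells of passage 21 that share no array with the 24 h groups. At 48 h limma called 1728 genes (12.7%), 818 higher (6.0%) and 910 lower (6.67%). Of the 355 rises at 24 h, 250 were also called higher at 48 h, 70.4% of the 24 h rises and 30.6% of the 48 h rises. Of the 381 falls, 224 were also called lower, 58.8% and 24.6%. The calls at both times came from 1 fit with a shared estimate of each gene's spread, so these overlaps are not between independent tests. The median change of the 24 h rises was 0.64 at 24 h and 0.46 at 48 h, and that of the falls −0.69 and −0.40. Across all 13644 genes, which are not independent replicates, the changes at both times had a Pearson r of 0.617 and a Spearman rho of 0.588; time and passage cannot be told apart.

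**Figure D4:**
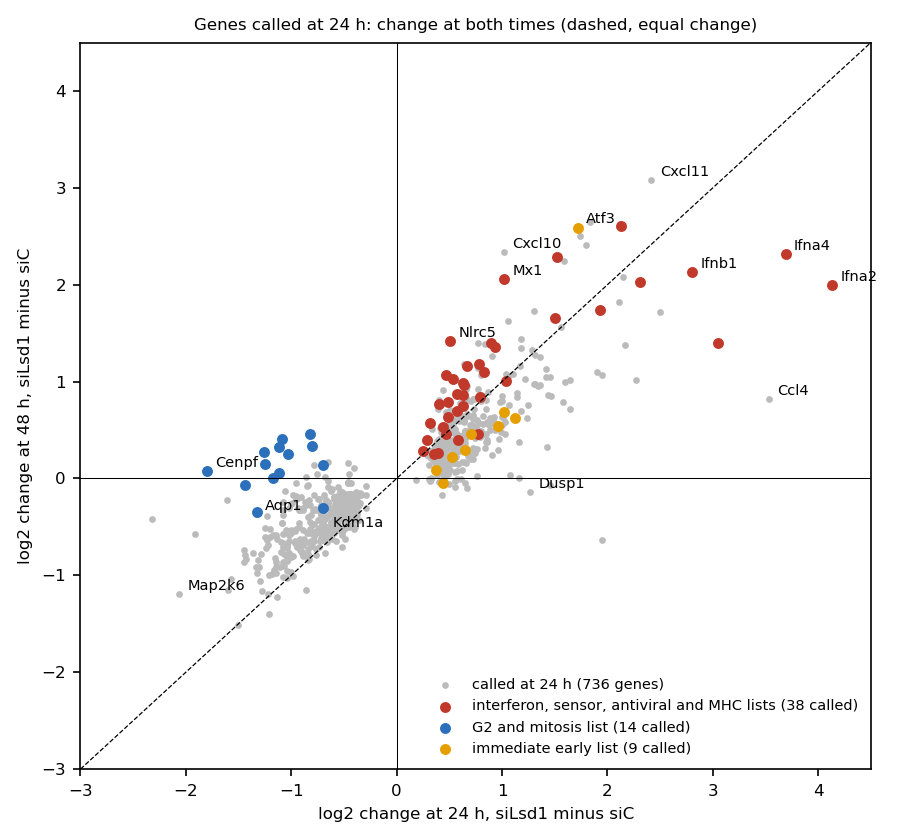
Log2 change at 48 h (vertical axis) against that at 24 h (horizontal axis), both siLsd1 minus siC, for the 736 genes called at 24 h; red marks called genes of the interferon ligand, sensor, antiviral and MHC lists, blue the 14 called G2 and mitosis genes, orange the 9 called immediate early genes, and the dashed line equal change. Most points lie in the 2 quadrants of equal sign, the mitosis genes lie between −0.34 and 0.46 at 48 h, and Cxcl10, Mx1 and Nlrc5 lie above the line of equal change.

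No gene passed the test of the difference between the times by limma, with 896 genes at an unadjusted p under 0.05 and a smallest adjusted p of 0.112, for Ccl4. Without siLsd1 48 h replicate 3, 201 genes passed (1.47%). Ccl4 changed by 3.53 at 24 h and by 0.82 at 48 h. Mlkl, Nlrc5 and Cxcl10 had changes of 0.77, 0.51 and 1.02 at 24 h and of 1.40, 1.42 and 2.34 at 48 h, each with an adjusted p of 0.441 for the difference. Syne3, which encodes a nesprin of the nuclear envelope, had changes of −0.32 at 24 h (adjusted p 0.187) and 0.67 at 48 h. The 14 mitosis genes that fell at 24 h had changes between −0.34 and 0.46 at 48 h, with Cenpf at 0.08, Kif11 at −0.06 and Cenpe at 0.46; at 48 h siC itself read Cenpf at 24.96, 24.7 and 36.3, against 210.4 and 203 at 24 h. Dusp1, Il6ra and Gdnf, up at 24 h, had changes of −0.14, −0.07 and 0.00 at 48 h.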

How the data were processed

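The deposited table gives a linear intensity for each probe set on each array. The authors' probe set summary and array normalization are not given in the sources used here. The table held 45037 probe sets, of which 34945 had 1 gene symbol in the platform annotation, 932 several and 9160 none. The 25% of 18193 genes with the lowest mean, up to 18.4 intensity units, were left out as dim. Array medians were 35.6 to 40.6, and precision is limited by the few arrays.

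Log2 of the intensity was fitted in limma 3.58.1 (R 4.3.3), with a mean for each of 4 groups over all 10 arrays, 6 residual degrees of freedom, an intensity trend and Benjamini-Hochberg adjustment. The script was tested on simulated data. No replicate block was used: deviations of same-numbered 24 h arrays correlated at −0.245, and no source pairs them. Alternatives covered probe sets, filters, scaling, the trend, the arrays fitted, blocks and each array left out.

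Members and lists were chosen with earlier results of these data known, and some lists share genes. Named genes are the LSD1 complex list, the 20 largest rises and 20 largest falls whose groups do not overlap, up to 6 called members of each list or 2 with the smallest p, the 5 smallest interaction p-values and 12 fixed genes. Other called genes, and uncalled genes quoted for their role, were named after their values were seen. Of 113 other probe sets of 72 called named genes, 25 had the opposite sign. Promoters are from the RefSeq table of GRCm38.p6. Computations used Python 3.11.15 and pandas 2.3.3, and figures were drawn with matplotlib 3.10.9.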

Additional observations from a re-analysis of the deposited data

How the results depend on the processing

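The number of genes called at 24 h moved with the processing. Against 736 (355 higher, 381 lower), it was 427 with probe sets averaged per gene (184 lower), 402 with no intensity trend (209 higher and 193 lower), 3183 with the 24 h arrays alone (1285 and 1898) and 2853 with those arrays and a replicate block, added after seeing the data (1116 and 1737). Leaving out 1 array gave 30 to 3478 calls, 16 to 1384 higher and 11 to 2094 lower. The lowest counts came without siLsd1 24 h replicate 1 (30), siC 24 h replicate 1 (43) or replicate 2 (64) and siLsd1 24 h replicate 2 (131), and 357 and 466 came without siC 48 h replicate 2 or 3; such fits hold fewer arrays. A replicate block by number gave 680 calls (336 higher, 344 lower), and 755 with the 24 h numbers crossed; the G2 and mitosis falls went from 14 to 24 with the block by number. The interaction count was 0 to 201 with 1 array left out, 3 with 16 added to the intensity, 3 with low intensities raised and 1 with no trend.

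The Kdm1a change of −0.69 lost its call with every probe set (adjusted p 0.0662), no filter on dim genes (0.0576) and no trend (0.0903), each at −0.69, and with 1 array left out it ran from −0.72 to −0.66, with the call lost without any 24 h array or any siC 48 h array.

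Signs turned for 16 named genes, of which Dusp8, Inhba, Pola1 and Setd7 had been called. In each of these called genes, the other probe set of opposite sign had a mean under the dim level of 18.4. Averaged over probe sets, the changes were −0.10 for Dusp8, −0.34 for Inhba, 0.30 for Pola1, −0.0077 for Setd7, −0.057 for Cd8a, −0.087 for Gse1, 0.19 for Rest and 0.018 for Snai2. Centred on the median of tested genes, they were 0.017 for Hdac1, 0.022 for Kdm1b, 0.074 for Pdk4, 0.034 for Pparg, 0.013 for Rcor1, 0.038 for Rest and 0.061 for Snai2. With 1 array left out, the ranges were −0.18 to 0.25 for Cd79b, −0.040 to 0.20 for Cd8a, −0.14 to 0.26 for Gse1, −0.24 to 0.11 for Kdm1b, −0.044 to 0.024 for Pdk4, −0.10 to 0.011 for Rest, −0.050 to 0.0041 for Snai2, −0.18 to 0.27 for Tek and −0.22 to 0.031 for Zmym2. The cause of these differences was not tested.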

Other observations

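Further genes were called higher at 24 h and are given after their values were seen. Ms4a4d, a membrane protein gene, read 671 and 816 with siC at 24 h and 2069 and 1618 with siLsd1 (2.47-fold, limma adjusted p 0.00253). AW112010, a transcript of immune cells, read 59.6 and 73.0 against 226 and 168, and Cfb, which encodes complement factor B, 55.1 and 42.8 against 145 and 104 (2.95- and 2.53-fold). Pla1a, a phospholipase gene, rose from 268 and 244 to 552 and 490.4, and Cldn12, a tight junction gene, from 488 and 525 to 1233 and 1257. Mlana, known from pigment cells, rose from 26.0 and 22.8 to 77.4 and 69.3. Serpinb1a, a protease inhibitor gene, rose from 322 and 290.3 to 971 and 861.

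Further genes were called lower. Myh10, a non-muscle myosin gene, read 1998 and 1943 with siC against 819 and 1068 with siLsd1, and Evl, an actin regulator gene, 484 and 517 against 224 and 248.9 (2.11- and 2.12-fold). Ppp1r3c, a glycogen-targeting subunit of a phosphatase, fell from 387 and 386 to 142 and 174, and Pla2g7, a secreted phospholipase gene, from 742 and 715 to 295 and 331. Cdo1, an enzyme of cysteine breakdown, fell from 99.0 and 92.4 to 39.5 and 42.6 (2.33-fold, limma adjusted p 0.0435). Ypel2 fell from 410 and 443 to 203 and 204, and Bicc1, an RNA-binding protein gene, from 920 and 888 to 407 and 401.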
